A study of Homo sapiens with 10 samples.

Results

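The genes for CDK12, CDK13 and cyclin K (CCNK) held 62 of the 178837 poly(A) peaks called in IMR-32 cells, a human neuroblastoma line. A peak was taken as a site of a gene when its summit lay in the gene body of GENCODE 44 or up to 600 bp past the 3′ end. CDK12 held 23 sites, CDK13 held 27 and CCNK held 12. The peaks came from 10 libraries of poly(A) 3′-seq in cells transduced with pLKO.1 lentivirus and selected with puromycin for 2 days. The hairpins were sh22 or sh98 against CDK12, sh701 or sh704 against CDK13, and shGFP as the control, in biological duplicate, which gave 4 libraries for CDK12, 4 for CDK13 and 2 for GFP. All 10 libraries were merged before the peaks were called, so each site has a single value and no spread between replicates. The knockdown of the targets could not be checked, and shCDK12, shCDK13 and shGFP cells could not be compared. Since 4 of the 10 pooled libraries target CDK12 and 4 target CDK13, the height of a site in either kinase gene mixes depleted with other cells. All 9 genes used as markers of sympathetic neuroblastoma, among them GATA3 and MYCN, had a site at an annotated end, with a highest pileup of 16 to 114 reads. Of 6 markers of other cell types 2 had one, COL1A1 (14 reads) and ALB (3 reads).

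CDK12 and CDK13 are closely related kinases that phosphorylate serine 2 in the C-terminal repeats of RNA polymerase II. Each works in a complex with cyclin K, which it needs for its activity, and their kinase domain follows a long N-terminal region rich in arginine and serine. A transcript ends where the polymerase's RNA is cut downstream of a signal, most often AATAAA or ATTAAA, and a poly(A) tail is added. CDK12 in particular is known for keeping long genes from being cut early at signals in their introns. In 3′-seq, oligo(dT) primes at the poly(A) tail and the read starts beside the cut, so the 3′ edge of a peak on the gene strand lies near the cleavage position. Oligo(dT) can also prime on a run of A within the RNA, so the A content of the genome just downstream was counted at each site.

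The sites that best separate these properties are shown first, as sequence of the plus strand of GRCh38, which is the coding strand of all 3 genes. Of the 39 intronic sites, 4 had fewer than 7 A among the 10 bases that follow the 3′ edge together with AATAAA or ATTAAA starting 10 to 40 bp upstream of it, as did 7.76% of all intronic peaks in genes of 1 strand. 3 of the 4 are shown, with that signal in capitals.
CDK12 site 22 (chr17:39560389-39560453): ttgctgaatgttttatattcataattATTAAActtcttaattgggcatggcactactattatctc
CDK13 site 2 (chr7:39955817-39955881): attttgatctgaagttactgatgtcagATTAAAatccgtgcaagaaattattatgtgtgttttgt
CDK13 site 12 (chr7:40006353-40006417): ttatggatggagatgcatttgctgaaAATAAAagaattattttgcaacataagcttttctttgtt
An A-rich intronic site of the highest pileup in each kinase gene is shown as a contrast (in CDK12, site 19 tied with site 3 and had the higher −log10 q-value), with those 10 bases in capitals.
CDK12 site 19 (chr17:39539751-39539815): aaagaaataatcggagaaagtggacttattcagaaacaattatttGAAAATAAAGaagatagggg
CDK13 site 23 (chr7:40074855-40074919): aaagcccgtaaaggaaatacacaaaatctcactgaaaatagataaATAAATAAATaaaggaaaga
Sites are numbered from the 5′ end of each gene. CDK13 site 3 had 5 A in the first 10 bases downstream but 15 in the first 20, so its place among the A-poor sites rests on the length of the window.

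The sites in the last exon are shown in windows of 30 bases, again with AATAAA or ATTAAA in capitals. The windows end 3 bases past the 3′ edge, except at CDK12 sites 16 and 17. At site 17 the window ends 1 base past the edge. At site 16 it stops short of the edge at 39533072, so the bases downstream of that site are not shown. They lie in the exon in which the canonical mRNA of each gene ends.
CDK12 site 13 (chr17:39531851-39531880): gAATAAAtgtttctttcctctccaccatct
CDK12 site 14 (chr17:39532243-39532272): ttgaAATAAAggaaaggaaattcagactct
CDK12 site 15 (chr17:39532457-39532486): atgtcaaaaaaaaaacaaaaacctttcaaa
CDK12 site 16 (chr17:39533038-39533067): aAATAAAatctacttataagagaaaggtgc
CDK12 site 17 (chr17:39534005-39534034): tATTAAAtacattattttgaacagatgaga
CDK12 site 18 (chr17:39534516-39534545): tggaaaATTAAAtatttcctgttactatac
CDK13 site 26 (chr7:40095527-40095556): tcttgatgcaacagttttataaaaaaaaaa
CDK13 site 27 (chr7:40097100-40097129): tgttttaaaaATTAAAtattttatataaaa
CCNK site 8 (chr14:99511485-99511514): agttatccaAATAAAagcagttctgaaact
CCNK site 9 (chr14:99512172-99512201): ccacgtcagagtggttgaatagaaggtaga
CDK13 site 26, the highest site of that gene, ends in a run of A that reaches across the 3′ edge, and neither signal starts 10 to 40 bp upstream of it.

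The sites were placed on the annotated transcripts in a fixed order. A terminal site had its summit from 200 bp upstream to 600 bp downstream of any annotated transcript end, an exonic site lay in another exonic position, and the rest were intronic. CDK12 had 7 terminal, 4 exonic and 12 intronic sites. CDK13 had 3 terminal, 3 exonic and 21 intronic sites. CCNK had 4 terminal, 2 exonic and 6 intronic sites. Intronic sites were the most numerous class in all 3 genes, as they were among all peaks in genes of 1 strand, of which 71.7% were intronic.

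The height of a site is given as its pileup, the number of reads, extended to 100 bp, that cover the summit. It was recovered from the deposited fold enrichment and p-value. Reads that start at the same position on the same strand count once, so a pileup is a number of distinct read positions and levels off at abundant sites. The median pileup was 9 reads over the sites of CDK12 (range 5 to 22), 11 over those of CDK13 (5 to 34) and 12.5 over those of CCNK (7 to 45). Over all peaks of the list the median was 9. Intervals given with a pileup are exact 95% Poisson intervals and cover counting error only.

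**Figure D1:**
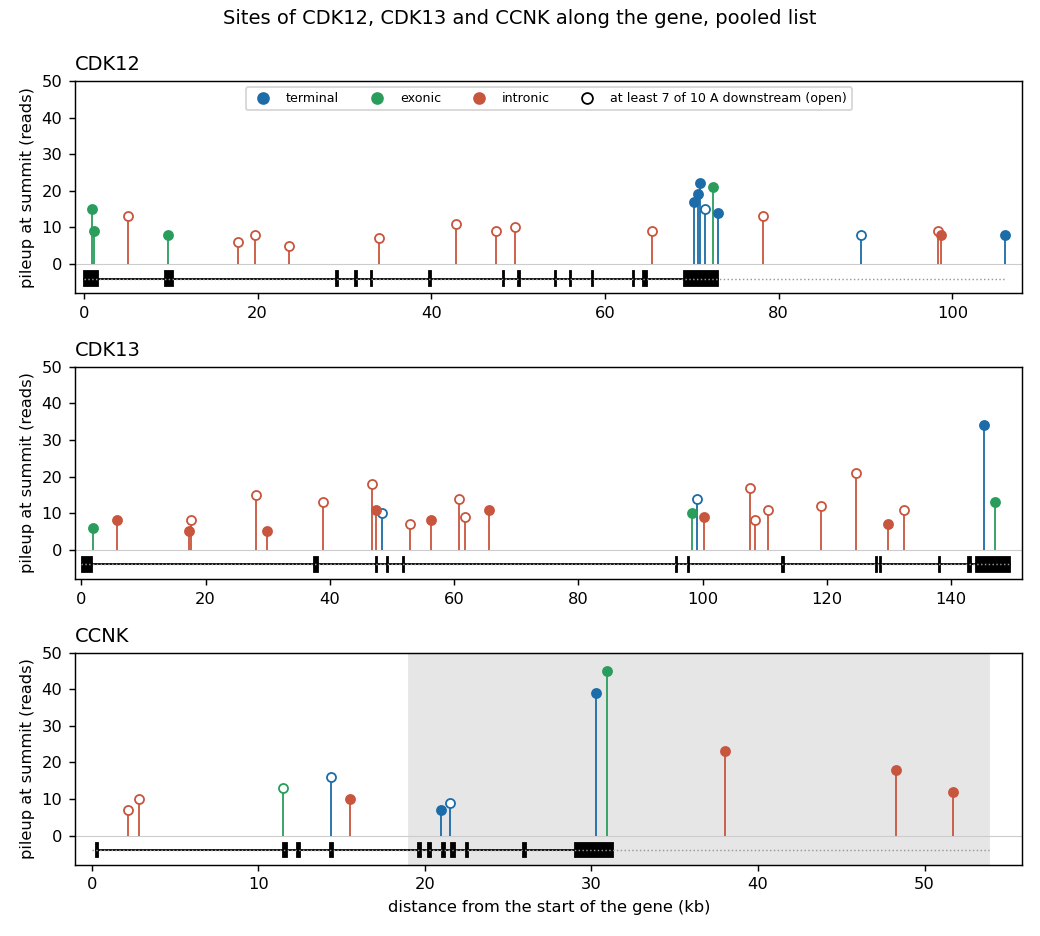
Pileup at the summit (reads, vertical axis) of each of the 62 sites against distance from the start of the gene (kb, horizontal axis), for CDK12, CDK13 and CCNK. Points are single sites of the pooled list, coloured by class and open where at least 7 of the 10 bases downstream are A; black boxes are exons of the canonical transcript, the dotted line is the rest of the annotated gene, and the grey area is the part of CCNK that CCDC85C overlaps. The 6 sites of the last exon of CDK12 stand between 14 and 22 reads, and CCNK reaches 45 reads in the grey area.

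CDK12 (ENSG00000167258) lies at chr17:39461486-39567559, and its canonical transcript has 14 exons and ends at 39534544. Its last exon, of 3941 bp, held 6 sites, spread over 2665 bp between the first and the last 3′ edge. At least 6 sites in the canonical last exon were found in 1.54% of the 13934 protein-coding genes with any site there. The median gene had 2 such sites, with quartiles of 1 and 3.

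The pileups along the last exon of CDK12 were 17, 19, 22, 15, 21 and 14 reads from 5′ to 3′. The highest, at site 15, had an interval of 13.8 to 33.3 and the lowest, at site 18, one of 7.65 to 23.5, so these overlapped. Since a pileup levels off at abundant sites, the values cannot tell whether the sites were used alike. Site 15 lay 1170 bp past the last coding base and 6 bp past the end of the protein-coding transcript CDK12-201. Site 18 lay 3229 bp past the last coding base and 2 bp before the canonical end. Of the 6 sites, 5 had AATAAA or ATTAAA 10 to 40 bp upstream and 1, site 15, had neither. Over all terminal peaks in genes of 1 strand, 50.4% had such a signal, but that set holds no exonic sites such as site 17. Site 16 was the A-rich one in this exon, with 8 A of 10 downstream. Site 15 had 6 A of 10, but its sequence above also holds runs of A just upstream of the 3′ edge. The downstream count does not cover those runs, and whether oligo(dT) primed on them was not tested.

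CDK12 also had sites near the 5′ end. Site 1, in exon 1, had 15 reads (8.40 to 24.7), and site 2, further on in the same exon, had 9. Both had 6 A of 10 downstream, and 13 and 12 A of 20. Neither had AATAAA or ATTAAA within 100 bp upstream, but both had another of the 12 hexamers of the wider search described below. Site 4, in exon 2, had 8 reads and 5 A of 10, with AATAAA 29 bp upstream of its other edge on the minus strand. These 3 sites lie in coding sequence, with their summits after codon 119, codon 178 and codon 448 of the 1490 codons. Their 3′ edges lie further on. Among all exonic peaks in genes of 1 strand, 33.6% had at least 7 A of 10 downstream, and none of the 4 exonic sites of CDK12 had that many. The peaks carry no strand, so the 3′ edge was taken on the strand of the gene.

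Of the 12 intronic sites of CDK12, 11 had at least 7 A of 10 downstream (91.7%, 95% Wilson interval 64.6% to 98.5%). Over the 104551 intronic peaks in genes of 1 strand this share was 70%, a value inside that interval. The Wilson intervals here and below treat the sites of a gene as independent draws and are descriptive only. In 4 of the 12 all 10 bases were A. The intronic sites had 5 to 13 reads and a median of 9, against a median of 8 over all intronic peaks. All were below the 14 reads of the lowest site in the last exon. The highest were site 19 (13 reads, 7 A of 10), site 3 in intron 1 (13 reads, 10 A of 10) and site 9 in intron 6 (11 reads, 7 A of 10). Site 19 is not in an intron of the canonical transcript but 5251 bp past its end, where longer non-canonical transcripts run on.

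Counted on the canonical transcript of CDK12, 9 sites lay in 6 of its 13 introns. Intron 2, with 18.8 kb the longest, held 3 of them, and intron 6 (8.27 kb) held 2. Introns 1, 5, 7 and 13 held 1 each. Exon 5 encodes the PITAIRE motif, part of the helix of the kinase that contacts the cyclin. Of the 9 sites, 4 lay in introns before that exon and 5 in introns after it.

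Past the canonical end of CDK12 lay 5 sites, with 8 to 13 reads. Site 20 (8 reads, 10 A of 10) was 2 bp from the end of CDK12-209, a transcript annotated as a retained intron. Site 22 (8 reads, 3.45 to 15.8) had 3 A of 10 and ATTAAA 19 bp upstream, and was 4397 bp from the nearest annotated end. Site 23 (8 reads) was 1 bp from the end of CDK12-204, a transcript annotated for nonsense-mediated decay, with 0 A of 10 and AATAAA 20 bp upstream. It is thus a low site with both features of a cleavage site, shown here in 30 bases with the signal in capitals.
CDK12 site 23 (chr17:39567532-39567561): atgaatgAATAAAtgacaaaagaacatctc

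**Figure D2:**
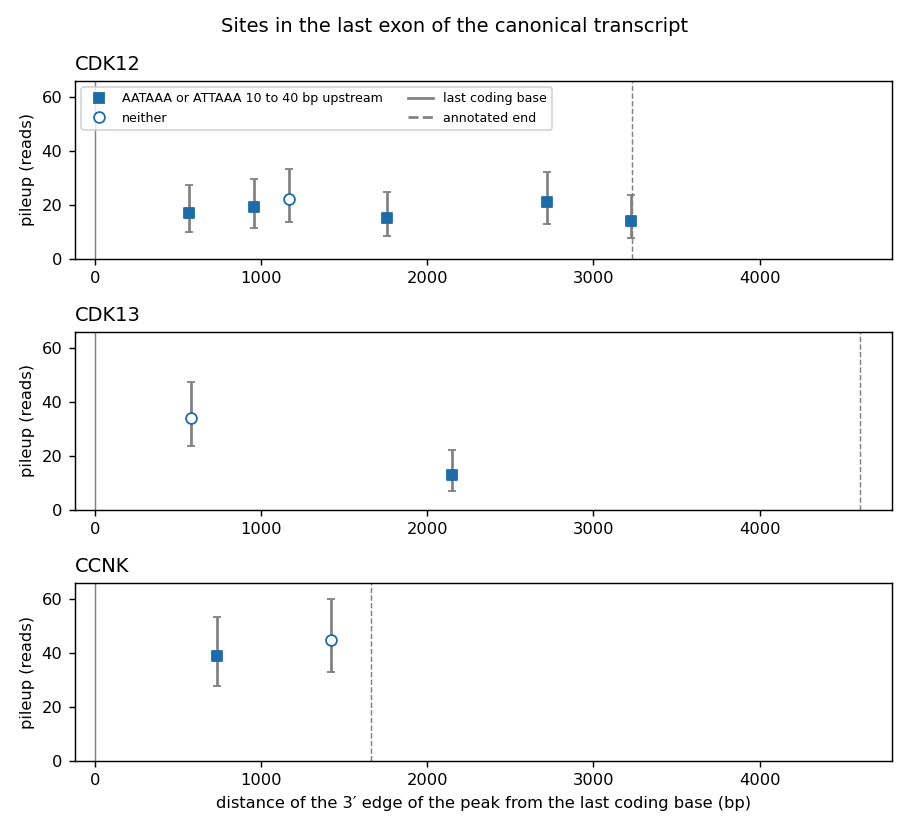
Pileup at the summit (reads, vertical axis) of the sites in the last exon of the canonical transcript against the distance of the 3′ edge from the last coding base (bp, horizontal axis), for each gene. Squares have AATAAA or ATTAAA 10 to 40 bp upstream, open circles have neither, bars are exact 95% Poisson intervals, the solid line is the last coding base and the dashed line is the annotated end. CDK12 has 6 sites up to its end, whereas the 2 sites of CDK13 lie in the first 2149 bp and leave 2454 bp without a site.

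CDK13 (ENSG00000065883) lies at chr7:39950121-40099580 and, like CDK12, has 14 exons in its canonical transcript. Its last exon is the longest of the 3, with 5451 bp, but held only 2 sites. Site 26 had 34 reads (23.5 to 47.5), the highest value in the gene, and lay 576 bp past the last coding base and 2 bp before the end of the protein-coding transcript CDK13-202. Site 27 had 13 reads (6.92 to 22.2) and ATTAAA 17 bp upstream. The intervals of the 2 sites did not overlap. No site lay in the window of the canonical end at 40099580, and site 27 was 2454 bp short of it. Of the protein-coding genes with a site in the canonical last exon, 14.8% had none in the window of the canonical end, CDK13 and CCNK among them.

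The other terminal sites of CDK13 lay in the gene body, in the windows of ends of short transcripts. Site 17 (14 reads, 7.65 to 23.5) was 20 bp before the end of the retained-intron transcript CDK13-219, in intron 7 of the canonical transcript, with 10 A of 10. Site 10 (10 reads, 8 A of 10) lay in intron 3, with its 3′ edge 638 bp past the end of CDK13-208, and was no longer terminal when placed by that edge. Both were A-rich, as were 23.3% of all terminal peaks in genes of 1 strand.

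Of the 3 exonic sites of CDK13, site 27 is described above and the other two lay in introns of the canonical transcript. Site 1 (6 reads, 4 A of 10) lay in an exon of CDK13-211, within canonical intron 1, with ATTAAA 26 bp upstream. Site 16 (10 reads, 2 A of 10) lay in an exon of CDK13-219, within canonical intron 7, with AATAAA 20 bp upstream. They are shown because they combine a signal with few A downstream.
CDK13 site 1 (chr7:39952102-39952131): aATTAAAagtttcagacttgttgcattaat
CDK13 site 16 (chr7:40048506-40048535): ttggcttAATAAAtctttagtccatttacc

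Among the 21 intronic sites of CDK13, 13 had at least 7 A of 10 downstream (61.9%, 95% Wilson interval 40.9% to 79.2%), again a share whose interval holds the 70% of all intronic peaks. With a limit of 8 A in place of 7 the count fell to 4, and in 3 of them all 10 bases were A. The 21 sites had 5 to 21 reads, and the median was 11. Site 23, in intron 9, was the highest (21 reads, 13.0 to 32.1, 7 A of 10). It was followed by site 8 in intron 2 (18 reads, 9 A of 10) and site 19 in intron 7 (17 reads, 7 A of 10). The interval of site 23 overlapped that of site 26 in the last exon.

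A signal together with fewer than 7 A was found at 3 of the 21 intronic sites of CDK13, at 1 of the 12 of CDK12 and at 0 of the 6 of CCNK, against 7.76% of all intronic peaks. In CDK13 these were site 2 (8 reads, 4 A of 10, ATTAAA 18 bp upstream), site 3 (5 reads, 5 A of 10, AATAAA 22 bp upstream) and site 12 (8 reads, 5 A of 10, AATAAA 19 bp upstream). Sites 2 and 3 lay in intron 1, after codon 403 of 1512, and site 12 lay in intron 5, after codon 784. All were low, at or below the median of the gene's intronic sites. The counts of 3, 1 and 0 are too small to set the genes apart from the background share.

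A wider motif search took any of 12 hexamers, AATAAA or ATTAAA or AGTAAA or TATAAA or AATATA or AATACA or CATAAA or GATAAA or AATGAA or ACTAAA or AAGAAA or AATAGA, on the gene strand within 100 bp upstream of the 3′ edge. Such a hexamer was present at 7 of 12 intronic sites of CDK12, 10 of 21 of CDK13 and 1 of 6 of CCNK, and at 49.5% of all intronic peaks. Several of these hexamers can also occur within runs rich in A, as in the sequence of CDK13 site 23.

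Along CDK13, 25 sites lay in 7 of the 13 canonical introns. Introns 1 (35.7 kb) and 7 (14.9 kb) held 6 each, intron 5, the longest with 43.8 kb, held 5, intron 2 (9.24 kb) held 3, introns 9 and 11 held 2 each and intron 3 held 1. The sites were therefore in the long introns, and the 5 introns under 2 kb in the gene held only the 1 site of intron 3. Of the 25, 10 lay before exon 5, which encodes the PITAIRE motif in CDK13 as well, and 15 after it.

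CCNK (ENSG00000090061) lies at chr14:99481169-99535044, with 11 exons in a canonical transcript that ends at 99512440. It is the smallest of the 3 genes and held the highest sites. Site 9, in the last exon, had 45 reads (32.8 to 60.2), and site 8, upstream in the same exon, had 39 (27.7 to 53.3). Site 8 lay 732 bp past the last coding base and 3 bp before the end of the retained-intron transcript CCNK-203. It had 2 A of 10 and AATAAA 18 bp upstream. Site 9 lay 242 bp before the canonical end, which left the window of that end without a site. Neither signal stood 10 to 40 bp upstream of its 3′ edge.

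The strand of 7 of the 12 CCNK sites cannot be told. They lie where the gene CCDC85C, which runs on the minus strand from 99500190 to 99604207, overlaps CCNK, and the list has no strand. Both sites of the last exon, 8 and 9, are among them, and so every last-exon value of CCNK rests on sites of unknown strand. Without the 7 sites the highest terminal pileup of CCNK was 16 reads, at site 4. The left edge of site 9, at 99512031, was 1 bp from the end of the transcript CCDC85C-207 at 99512032, and on the minus strand AATAAA started 28 bp upstream of that edge, with 0 A of 10 downstream. The minus strand at that edge is shown with the signal in capitals, for comparison with the plus strand above.
CCNK site 9, minus strand (chr14:99512030-99512059): aAATAAAggcctctttgtgagcctcctggc
Reads of CCNK and of CCDC85C cannot be told apart at these sites.

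The same holds for the 3 sites past the canonical end of CCNK, which were the highest of its intronic sites. Site 10 had 23 reads (14.6 to 34.5), site 11 had 18 and site 12 had 12. On the plus strand they had 2, 1 and 2 A of 10, but on the minus strand they had 10, 8 and 10. The other 4 CCNK sites inside CCDC85C, from 6 to 9, had 5, 6, 6 and 0 A of 10 on the minus strand. Site 11 also had AATAAA 12 bp upstream on the minus strand.

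The 5 CCNK sites outside CCDC85C had 7 to 16 reads. Site 4 (16 reads, 9.15 to 26.0, 7 A of 10) lay in exon 4, 1 bp past the end of CCNK-205, a transcript whose 3′ end is annotated as incomplete. Site 3 (13 reads, 8 A of 10) lay in exon 2, with AATAAA 14 bp upstream. Sites 1 and 2 in intron 1 had 7 and 10 reads with 9 A of 10 each, and site 5 in intron 4 had 10 reads with 6 A of 10. The other terminal sites, 6 and 7, lie within CCDC85C and had 7 reads (1 A of 10) and 9 reads (7 A of 10). Of the 6 intronic sites of CCNK, 2 were A-rich on the plus strand (33.3%, 95% Wilson interval 9.68% to 70.0%), against 70% of all intronic peaks, which is level with the upper bound. Since 3 of the 6 lie in CCDC85C, where the strand is not known, this share is uncertain, and of the other 3 sites 2 were A-rich.

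**Figure D3:**
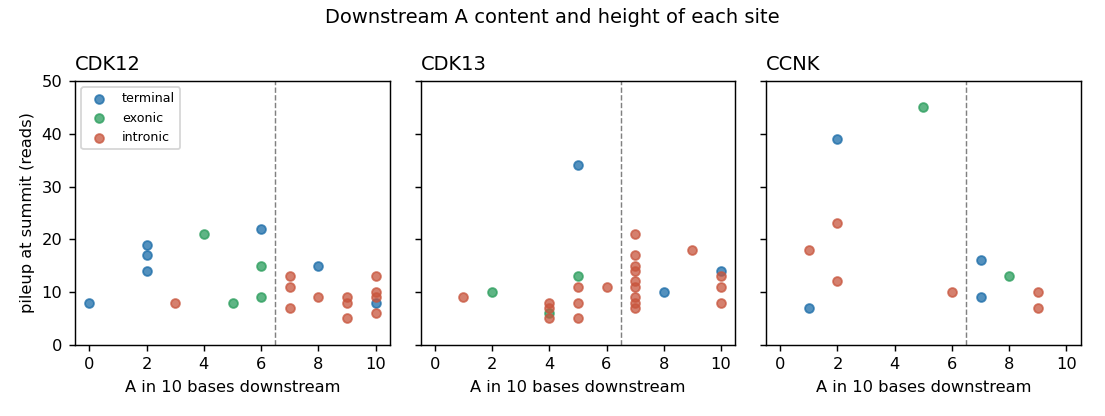
Pileup at the summit (reads, vertical axis) against the number of A among the 10 bases that follow the 3′ edge (gene strand, horizontal axis), for the sites of CDK12, CDK13 and CCNK coloured by class. The dashed line marks the limit of 7 A, and sites with equal values lie on top of each other. In CDK12, 11 of 12 intronic sites lie right of the line. The highest sites of CDK12, CDK13 and CCNK lie left of it but near it, with 6, 5 and 5 A. The strand of that CCNK site is unknown.

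The order of the genes by the highest pileup in the last exon was CCNK (45), CDK13 (34) and CDK12 (22). The intervals of neighbours in this order overlapped. Summed over the last exon the order changed, with 108 reads in CDK12 (88.6 to 130), 84 in CCNK (67.0 to 104) and 47 in CDK13 (34.5 to 62.5). The sums of CDK12 and CCNK overlapped in their intervals, and that of CDK13 lay below both. Both CCNK values rest on sites 8 and 9, which lie in CCDC85C and whose strand is unknown. With site 8 alone CCNK had 39 reads, fewer than the 47 of CDK13, so its place in either order is uncertain. CDK12 and CDK13, unlike CCNK, were also targets of hairpins in part of the pooled libraries. A sum over several sites has room for more distinct read positions than a single site, so the 2 orders measure different things.

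Against all protein-coding genes with a site in the canonical last exon, 56.5% reached at least the highest pileup of CDK12 there, 24.5% at least that of CDK13 and 9.73% at least that of CCNK. The highest pileup of CDK12 was thus near the median of 23 reads. Per 100 kb of intron, CDK12 had 12.9 intronic sites, CDK13 had 16.8 and CCNK had 13.1. At least as many were found in 42.3%, 25.6% and 41.1% of the 13422 protein-coding genes that had introns and a terminal site, whose median was 11.0. None of the 3 genes was at the extreme of this measure. Of the 6 intronic sites of CCNK, 3 remain without those inside CCDC85C, whose strand is unknown. The density of CCNK and its standing are therefore uncertain, and its highest pileup in the last exon also lies at a site of unknown strand.

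Other kinases of the transcriptional CDK family and their cyclins gave a closer comparison. The list held 15 genes with 170 sites: CDK7, CCNH and MNAT1, CDK8, CDK19 and CCNC, CDK9, CCNT1 and CCNT2, CDK10 and CCNQ, CDK11A, CDK11B, CCNL1 and CCNL2. All 15 had a terminal site, and 13 had an intronic one, the exceptions being CDK9 and CCNL1. The most sites in a last exon were the 4 of CCNT2, a partner of CDK9, against 6 in CDK12. CCNH, the cyclin of CDK7, had the highest pileup in a last exon, 57 reads. The highest pileup of CDK12 there was above that of 5 of the 15, and 4 of the 15 had no site in the window of the canonical end, as in CDK13 and CCNK. The intronic density of CDK13 was exceeded by 5 of the 15, that of CCNK by 7 and that of CDK12 by 8. The density of CCNK includes sites inside CCDC85C, whose strand is unknown. CDK11A and CDK11B are near-identical copies between which reads may be split, so their values are uncertain.

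The genes most like each member were found by distance on 4 standardised measures over 13417 genes, namely length, intronic sites, terminal sites and highest terminal pileup. For CDK12 they were ST7L (97.3 kb, 11 intronic and 7 terminal sites) and CCDC18 (98.8 kb, 15 intronic and 7 terminal sites). For CDK13 they were CHFR (134 kb, 21 intronic and 3 terminal sites) and AP2B1, and for CCNK they were PPP4R3A (53.0 kb, 6 intronic and 4 terminal sites) and NKIRAS1. These genes were chosen for their likeness in these measures, and nothing further was compared.

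By the caller's own measure, a −log10 q-value of 20 was reached at 4 of the 62 sites, and at 7.22% of all peaks. The 4 were 1 in CDK13 (site 26, 28.2) and 3 in CCNK (sites 8, 9 and 10, at 32.7, 41.3 and 31.7). The 3 in CCNK lie inside CCDC85C, so their strand is unknown. In CDK12 the highest value was 13.7, at site 19, an A-rich site past the canonical end. Its fold enrichment of 10.1 over a low local background exceeded the 7.62 of site 15, although site 15 had more reads. In CDK12 the rank of a site therefore differed between pileup and q-value.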

How the data were processed

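The authors filtered single-end reads, mapped them to GRCh38, randomly thinned the knockdown libraries, which were processed in separate batches, to the size of the smallest one, merged them all and called peaks once. The submitters' processing notes name STAR 2.5.1b and MACS2 2.1.1; reads were extended to 100 bp. In the deposited list the fold is the ratio of pileup plus 1 to local background plus 1, the deposited p-value is a −log10 value, and the deposited score for each peak, which MACS2 computed for the authors, is the −log10 of its q-value. After peak calling, the paper also removed peaks that lacked the 12 hexamers upstream but had a genomic stretch of A downstream, with their reads. That filter was not applied here. Depth per library is unknown. Libraries were assigned to groups by their titles.

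Pileups were recovered from fold and p-value, missing the deposited p-value of the 62 sites by at most 1.41e-05, whereas the next best pileup missed it by at least 0.00112. On simulated data, 4714 of 4715 pileups were recovered. Transcripts were those of GENCODE 44; the study used an earlier release. Named one by one were the 3 highest terminal and intronic sites per gene, every exonic site, and A-poor intronic sites with a signal; other sites described were chosen after their values were seen. Members and lists were chosen with earlier results of these data known. Some sequences and a marker gene are not reported here. No test was made, since sites of a gene are not replicates. Alternatives changed the q-value limit, transcripts, site position, windows and motifs. Tools were pysam 0.24.0, pandas 2.3.3, scipy 1.17.1 and numpy 2.4.6 under Python 3.11.15.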

Additional observations from a re-analysis of the deposited data

How the results depend on the processing

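Of 115 recomputed values of 21 results, 75 stayed within the limits set for them and 40 moved. When a −log10 q-value of 20 was required, CDK12 kept 0 terminal, 0 exonic, 0 intronic, 0 A-rich intronic and 0 hexamer sites (0 per 100 kb of intron). CDK13 kept 1 terminal, 0 exonic, 0 intronic, 0 A-rich and 1 hexamer site (0 per 100 kb), and CCNK kept 1 terminal, 1 exonic, 1 intronic, 0 A-rich and 2 hexamer sites (2.19 per 100 kb). At a limit of 5, CCNK had 1 A-rich intronic site. On the canonical transcript alone, terminal sites were 1 in CDK12, 0 in CDK13 and 0 in CCNK, exonic sites were 8 in CDK12 and 4 in CCNK, and neither CDK13 nor CCNK had a terminal pileup to give. Placed by the 3′ edge, CDK13 had 5 exonic sites; placed by the centre, CCNK had 1. With a window of 100 bp around ends, CCNK had 2 terminal sites. Counted downstream of the summit, which lies upstream of the 3′ edge on the gene strand, 0, 0 and 0 intronic sites of CDK12, CDK13 and CCNK were A-rich. The reason for this change was not tested. A limit of 8 A left 4 in CDK13. Searched upstream of the summit, the hexamer was at 8 sites of CDK13 and 3 of CCNK, and with AATAAA or ATTAAA alone at 7 of CDK12 and 2 of CCNK.

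Without the CCNK sites inside CCDC85C, an alternative chosen after seeing the data, CCNK had 1 terminal, 1 exonic, 3 intronic and 3 hexamer sites and a highest terminal pileup of 16. No paired analysis was possible because reads of every library were merged before peaks were called, and no replicate could be left out.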
